A study of Mus musculus with 8 samples.

Results

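Kupffer cells, the macrophages that live in the sinusoids of the liver, were followed through 10 marker genes in mouse liver RNA. The genes were chosen by symbol: Clec4f, Timd4, Vsig4, Marco and Cd5l, which mark resident Kupffer cells; Adgre1, Cd68 and Csf1r, which macrophages of most tissues express; and C1qa and C1qb, which encode chains of complement C1q. All 10 were found among the 48323 gene symbols of the table, each with an estimate in every library. All 10 were also among the 11316 symbols tested, which had at least 1 FPKM (fragments per unit of transcript length, scaled to library size) in at least 2 libraries.

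The animals of all groups were wild-type C57BL/6 mice, and each exposure lasted 30 weeks. LD-PM2.5 mice lived in a light/dark cycle and breathed fine particulate matter (PM2.5, suspended particles that reach the alveoli), and LD-FA mice lived in the same cycle in filtered air. LL-PM2.5 mice lived in constant light with PM2.5, and LL-FA mice in constant light with filtered air. Each group held 2 libraries, 8 in all, and the labels do not tell whether the pair within a group stems from different mice, so p-values measure only the spread between these libraries, which may be technical. Not given in the sources used here are the sex and age of the mice, any batch and the hour of collection.

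Kupffer cells settle in the liver before birth, renew themselves there and clear bacteria, aged red cells, lipoprotein particles and cell debris from portal blood. Their survival depends on the receptor encoded by Csf1r and its ligands CSF1 and IL-34, and their identity on transcription factors such as PU.1, LXR alpha and ID3. When they are lost, blood monocytes can enter the liver and take on much of the same gene program, with Timd4 acquired late.

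The libraries held 22214720 to 31819109 estimated fragments, and 8 hepatocyte genes summed to 14600 to 18700 FPKM in every library. Transcripts of other tissues were uneven. The 6 skeletal muscle genes summed to 423 FPKM in LL-FA replicate 1, while LD-FA held 224 FPKM in replicate 1 and 24.6 in replicate 2, and the other 5 libraries 0.513 to 1.17. The 6 fat cell genes summed to 55.8 FPKM in LL-FA replicate 1 and to 7.48 to 15.4 elsewhere, and the 7 pancreas genes to 3250 FPKM in LD-FA replicate 1, 320 in LL-PM2.5 replicate 2, 116 in LD-PM2.5 replicate 1 and 17.8 to 34.7 elsewhere. LL-FA replicate 1 and LD-FA replicate 1 are also the libraries where the macrophage genes were most often lowest and highest, and the part of the foreign transcripts in that was not tested. Medians of the 10 genes without these libraries are given with each comparison they move.

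All 10 genes were detected in every library, at levels that spanned from Cd5l, with a mean of 54.4 ± 8.99 FPKM over the 8 libraries (SD), down to Timd4, with 3.1 ± 0.468 FPKM. On this per-length scale the order of means was Cd5l, C1qa at 51.8 ± 10.2, C1qb at 50.4 ± 9.54, Clec4f at 36.3 ± 4.27, Vsig4 at 22 ± 3.05, Csf1r at 14.2 ± 1.69, Cd68 at 8.14 ± 0.993, Marco at 6.39 ± 3.28, Adgre1 at 6.38 ± 0.936 and Timd4. Neighbours in this order were not always separated. Cd5l was above C1qa in 5 of 8 libraries, C1qa above C1qb in 7 and Marco above Adgre1 in 3, and the ranges of each of these pairs overlapped, as did those of Cd68 and Marco. C1qb lay above Clec4f in 8 of 8 libraries with overlapping ranges. From Clec4f to Vsig4, Vsig4 to Csf1r, Csf1r to Cd68 and Adgre1 to Timd4 the ranges did not overlap. Thus the transcripts of Cd5l, Clec4f and Vsig4 stood above those of the general macrophage genes in every library, unlike Marco and Timd4.

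**Figure D1:**
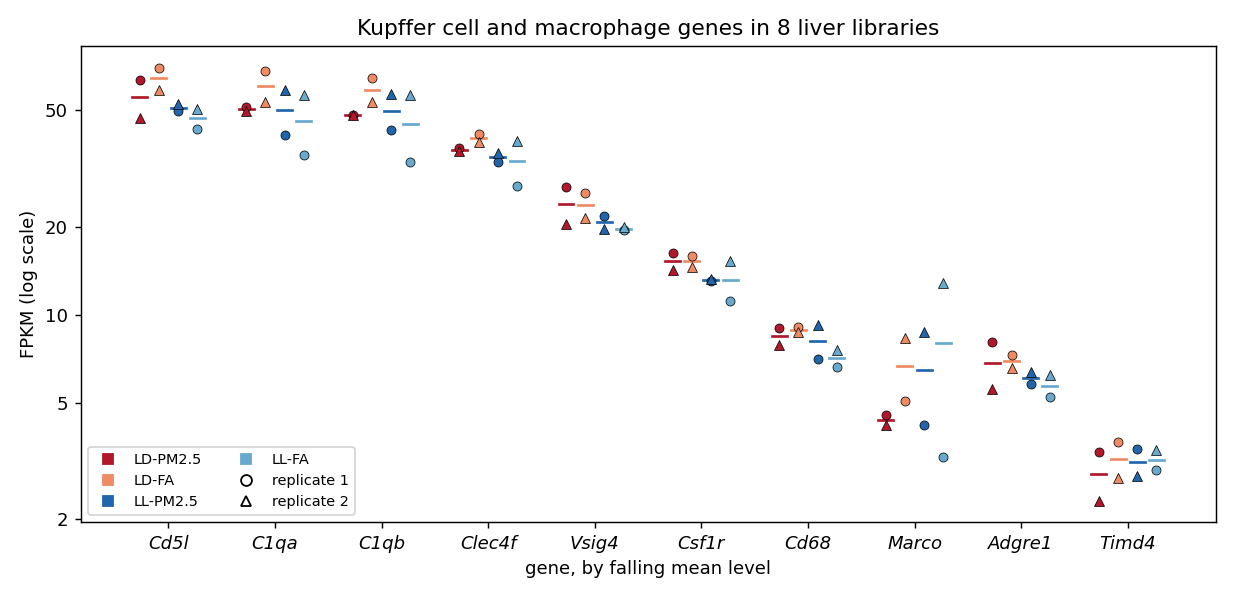
FPKM of the 10 genes (vertical axis, log scale) in each of the 8 libraries, ordered along the horizontal axis by mean level; colours give the group, circles replicate 1, triangles replicate 2 and bars the mean of the 2 libraries. All 4 groups overlap for Timd4, and each other gene has some pair of groups that does not overlap. The replicates of LL-FA are widely apart for Marco, C1qa and C1qb, and Marco spans 3.25 to 12.8 FPKM.

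Upstream sequence is shown for 4 of the genes. Cd5l was the most abundant, and Vsig4 is a Kupffer cell receptor of mid level. C1qb is of the C1q pair that moved together, and Marco varied most over the libraries. Each sequence is the 250 bases before the RefSeq start site on build GRCm38.p6, written in the direction of the gene. Capitals mark GAGGAA, the core letters that PU.1 binds, and TGCTGA, core letters that the product of Maf binds, on either strand (TTCCTC and TCAGCA are the same letters on the other strand). Cd5l is chr3:87357631-87357880 on the plus strand, C1qb chr4:136886201-136886450, Vsig4 chrX:96293439-96293688 and Marco chr1:120505025-120505274, all 3 on the minus strand.
Cd5l: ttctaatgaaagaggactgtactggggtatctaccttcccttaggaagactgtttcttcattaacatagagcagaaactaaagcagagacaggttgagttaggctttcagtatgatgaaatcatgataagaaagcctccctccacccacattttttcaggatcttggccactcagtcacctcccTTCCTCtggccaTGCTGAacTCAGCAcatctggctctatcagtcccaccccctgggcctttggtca
C1qb: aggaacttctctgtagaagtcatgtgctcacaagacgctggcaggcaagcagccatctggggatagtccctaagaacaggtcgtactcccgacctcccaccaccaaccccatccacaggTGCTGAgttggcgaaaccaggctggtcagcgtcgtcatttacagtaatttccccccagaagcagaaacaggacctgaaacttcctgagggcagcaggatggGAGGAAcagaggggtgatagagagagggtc
Vsig4: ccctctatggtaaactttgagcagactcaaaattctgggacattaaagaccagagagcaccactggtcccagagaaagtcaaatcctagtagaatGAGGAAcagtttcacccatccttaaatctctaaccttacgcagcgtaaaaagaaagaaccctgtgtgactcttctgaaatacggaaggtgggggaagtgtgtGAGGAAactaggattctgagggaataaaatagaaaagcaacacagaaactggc
Marco: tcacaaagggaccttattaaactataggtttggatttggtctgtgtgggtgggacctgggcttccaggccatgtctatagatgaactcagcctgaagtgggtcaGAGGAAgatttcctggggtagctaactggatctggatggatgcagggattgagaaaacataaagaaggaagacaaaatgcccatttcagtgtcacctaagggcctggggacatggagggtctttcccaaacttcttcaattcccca

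In Cd5l, TGCTGA began at base -54 counted from the start site and its reverse at -46, with GAGGAA on the opposite strand at -66, so all 3 matches lay within a short stretch close to the start. C1qb held GAGGAA at -30 and TGCTGA at -131, Vsig4 held GAGGAA at -155 and -53, and Marco held it at -146 and no TGCTGA. RefSeq windows were matched for 7 of the 10 genes, all but Adgre1, Csf1r and C1qa. Of these 7, 5 held GAGGAA on either strand and 4 held TGCTGA, against 23.3% and 16.1% of all 32851 windows of this length. None of the 7 held the longer GAGGAAGT, which 2.44% of all windows hold and which contains the 6-letter core, and none held TATAAA, which 12.4% hold. Such matches describe letters and are not binding sites.

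Clec4f encodes a galactose-binding lectin that in mice is made almost exclusively by Kupffer cells (chromosome 6, 83644542 to 83656187, minus strand, GRCm38/mm10, GENCODE vM21, as for all positions below). It stood at 37.1 and 36.3 FPKM in LD-PM2.5, 41.4 and 39.1 in LD-FA, 33.4 and 35.8 in LL-PM2.5, and 27.6 and 39.3 in LL-FA. LL-FA replicate 1 was the lowest library and its partner among the higher ones, so the LL-FA libraries enclosed both LL-PM2.5 and both LD-PM2.5 libraries. Timd4, the phosphatidylserine receptor TIM-4 for the uptake of dying cells (chromosome 11, 46810800 to 46844332, plus strand), stood at 3.39 and 2.31 FPKM in LD-PM2.5, 3.67 and 2.75 in LD-FA, 3.47 and 2.8 in LL-PM2.5, and 2.95 and 3.43 in LL-FA. All 4 groups overlapped, and Timd4 was the only 1 of the 10 genes whose lowest value was not in LL-FA replicate 1.

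Vsig4, the complement receptor CRIg that captures C3b-coated particles (chromosome X, 96247203 to 96293438, minus strand), stood at 27.4 and 20.4 FPKM in LD-PM2.5, 26.1 and 21.4 in LD-FA, 21.8 and 19.6 in LL-PM2.5, and 19.5 and 19.9 in LL-FA. Replicate 1 was the higher library in both light/dark groups, and LL-FA lay below both LD-FA libraries. Cd5l, a secreted protein of resident macrophages also called AIM (chromosome 3, 87357881 to 87371073, plus strand), stood at 63.7 and 47.2 FPKM in LD-PM2.5, 70 and 58.5 in LD-FA, 49.6 and 52.5 in LL-PM2.5, and 43.2 and 50.6 in LL-FA. Both LL-FA libraries were below both LD-FA libraries, while LD-PM2.5 spanned the range of LL-PM2.5.

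Marco, a scavenger receptor for bacteria and inhaled or blood-borne particles (chromosome 1, 120474538 to 120505024, minus strand), stood at 4.55 and 4.19 FPKM in LD-PM2.5, 5.06 and 8.32 in LD-FA, 4.2 and 8.69 in LL-PM2.5, and 3.25 and 12.8 in LL-FA. The lowest and the highest of the 8 libraries were both in LL-FA, a 3.95-fold range. The replicates lay closest together in LD-PM2.5, both below the LD-FA libraries. The coefficient of variation of Marco over the 8 libraries was 51.3%, higher than that of 96% of all tested genes, while the other 9 genes lay between 11.8% for Clec4f and 19.7% for C1qa, around the median of 16.7% over all tested genes.

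Among the general macrophage genes, Adgre1, which encodes the F4/80 antigen (chromosome 17, 57358691 to 57483527, plus strand), stood at 8.08 and 5.57 FPKM in LD-PM2.5, 7.28 and 6.57 in LD-FA, 5.79 and 6.36 in LL-PM2.5, and 5.21 and 6.2 in LL-FA. The 2 libraries of LD-PM2.5 enclosed both LD-FA libraries. Cd68, a glycoprotein of lysosomes and endosomes (chromosome 11, 69664213 to 69666153, minus strand), stood at 8.99 and 7.89 FPKM in LD-PM2.5, 9.09 and 8.69 in LD-FA, 7.07 and 9.22 in LL-PM2.5, and 6.63 and 7.57 in LL-FA. Its highest library was LL-PM2.5 replicate 2 and its lowest LL-FA replicate 1. Csf1r, the receptor for CSF1 and IL-34 (chromosome 18, 61100598 to 61132149, plus strand), stood at 16.3 and 14.2 FPKM in LD-PM2.5, 15.9 and 14.5 in LD-FA, 13 and 13.2 in LL-PM2.5, and 11.1 and 15.2 in LL-FA. Both LL-PM2.5 libraries lay below both LD-PM2.5 libraries, and the libraries of the other groups were spread around them. Csf1r was the 1 gene of the 10 whose exons share bases with another gene, Hmgxb3 on the opposite strand, and it is not stated in the sources used here whether the counting used strand.

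C1qa and C1qb encode chains of C1q, which binds antibody complexes and apoptotic cells and starts the classical complement pathway. With C1qc they lie within 18675 bases of chromosome 4 (136880129 to 136898803, all on the minus strand, in the order C1qb, C1qc, C1qa). C1qa stood at 51.3 and 49.6 FPKM in LD-PM2.5, 68 and 53.4 in LD-FA, 41.3 and 58.7 in LL-PM2.5, and 35.2 and 56.6 in LL-FA. C1qb stood at 48.2 and 48.1 FPKM in LD-PM2.5, 64.4 and 53.2 in LD-FA, 42.9 and 56.7 in LL-PM2.5, and 33.3 and 56.3 in LL-FA. The chains kept step: the ratio of C1qa to C1qb lay between 0.964 and 1.06 in all 8 libraries although each level varied 1.93-fold, and the ratio of C1qc to C1qb lay between 0.842 and 1.02. In both constant light groups replicate 2 was far above replicate 1, and in LD-PM2.5 the replicates were nearly equal.

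**Figure D2:**
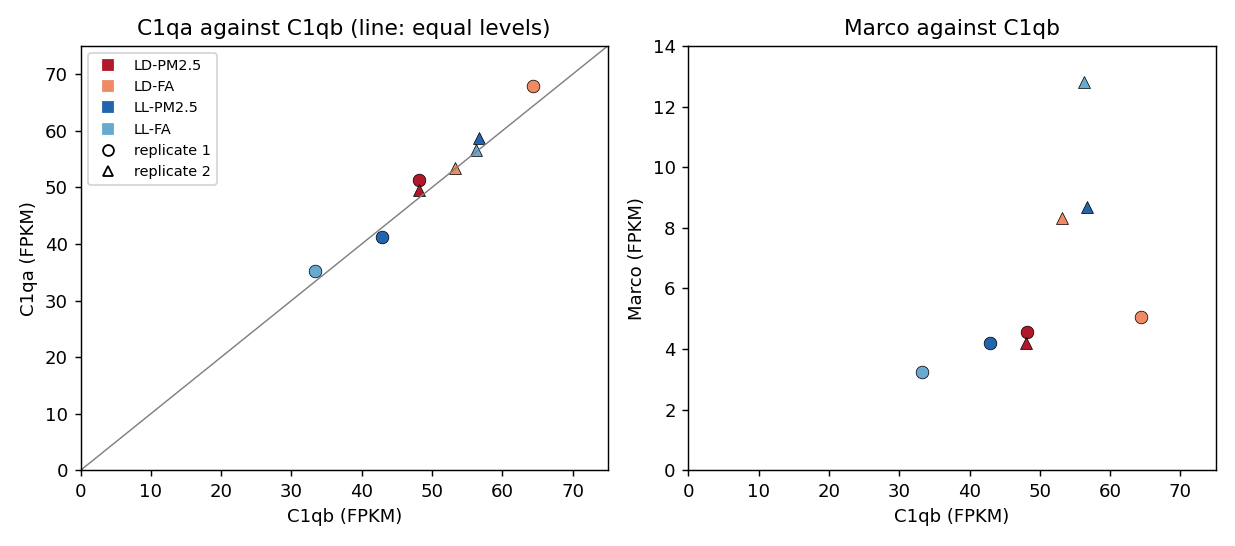
FPKM of C1qa (left) and of Marco (right) against FPKM of C1qb in the 8 libraries; colours give the group, circles replicate 1 and triangles replicate 2, and the line marks equal levels. C1qa follows C1qb closely over the 1.93-fold range, whereas Marco reaches 12.8 FPKM in 1 LL-FA library and 5.06 FPKM in the LD-FA library with the most C1qb.

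Across libraries the genes tended to be high or low together. Pearson's r of log2(FPKM + 1) over the 8 libraries, which share 4 groups and the uneven foreign transcripts described above, had a median of 0.65 over the 45 pairs of genes and was highest between C1qa and C1qb, at 0.99. Without the 9 pairs that include Marco the median was 0.72. For the pairs with Marco it was 0.34, with -0.28 against Vsig4 and 0.64 against C1qb. Timd4 was also loosely tied to the others, from 0.02 against Cd68 to 0.56 against Vsig4. These values lean on LL-FA replicate 1: without it the medians were 0.48 over all pairs, 0.53 over pairs without Marco and 0.02 over pairs with Marco. When LD-FA replicate 1 was left out instead, the same medians were 0.60, 0.63 and 0.42. Set against each gene's own mean, LL-FA replicate 1 was the lowest library for 9 of the 10 genes, with a median deviation of -0.33 on the log2 FPKM scale. LD-FA replicate 1 was the highest for Clec4f, Timd4, Cd5l, C1qa and C1qb, with a median deviation of 0.23, and LD-PM2.5 replicate 1 was the highest for Vsig4, Adgre1 and Csf1r.

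**Figure D3:**
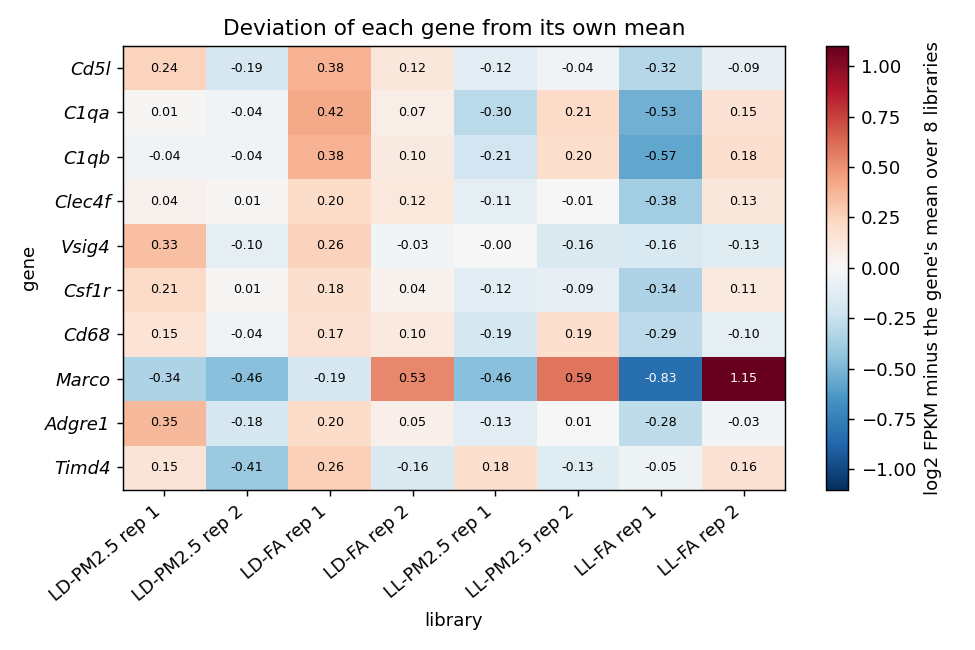
Deviation of log2 FPKM from the gene's own mean over the 8 libraries (colour and printed value), with genes in rows and libraries in columns. LL-FA replicate 1 is below the mean for all 10 genes, and LD-FA replicate 1 is above it for all but Marco.

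Summed over the 10 genes, expression was 269 and 236 FPKM in LD-PM2.5, 311 and 266 in LD-FA, 223 and 264 in LL-PM2.5, and 188 and 268 in LL-FA. The group means were 252 ± 23.3 in LD-PM2.5, 288 ± 31.8 in LD-FA, 244 ± 29 in LL-PM2.5 and 228 ± 56.6 in LL-FA (SD, n = 2 each), and no 2 groups were separate except that both LL-PM2.5 libraries lay below both LD-FA libraries. Fewer macrophages in the tissue and less of these transcripts in each macrophage cannot be told apart in bulk RNA. As a ratio to 12 genes of sinusoidal endothelium, the cells that Kupffer cells sit on, the sum was 1.84 and 1.58 in LD-PM2.5, 2.03 and 1.81 in LD-FA, 1.53 and 2.02 in LL-PM2.5, and 1.39 and 1.83 in LL-FA. The endothelial genes themselves summed to 130 to 153 FPKM, and LL-FA replicate 1 was again the lowest library on the ratio.

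The question whether long PM2.5 exposure altered the macrophage genes of the liver was put in each light regime. In a light/dark cycle, LD-PM2.5 against LD-FA, none of the 10 genes passed edgeR's quasi-likelihood test at an adjusted p of 0.05, where 0% of all tested genes did. None had an unadjusted p under 0.05 either, against 11% of all genes, and DESeq2 called none of the 10 and 1.33% of all genes. The log2 fold changes had a median of -0.18, against -0.01 over all tested genes, and 9 of 10 were below 0, against 51.6% of all genes. For 4 genes, Clec4f, Marco, C1qa and C1qb, both LD-PM2.5 libraries lay below both LD-FA libraries, as in 18.7% of all genes, and none lay wholly higher, as 24.6% did. Leaving out LD-FA replicate 1 gave a median of -0.10, and it was -0.24 or -0.09 when replicate 1 or replicate 2 of LD-PM2.5 was left out, with 7 of the 10 below 0 in the last case. The smallest adjusted p was that of Cd5l, 0.614, with a log2 fold change of -0.22 ± 0.17 (SE). C1qa and C1qb both had -0.24, with SEs of 0.25 and 0.23, Clec4f had -0.14 ± 0.16, and Marco had -0.59 ± 0.63. The SE of Marco was larger than its change, and Csf1r stood at 0.01 ± 0.16.

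In LL-PM2.5 against LL-FA, the constant light pair, again none of the 10 passed edgeR's test, none had an unadjusted p under 0.05, and DESeq2 called none. Of all tested genes, 0% passed edgeR's test, 4.83% had such an unadjusted p and DESeq2 called 0.513%. The median log2 fold change was 0.08, against 0.00 over all genes, and 2 of the 10 were below 0, against 49.3% of all genes. Cd68 had 0.23 ± 0.19, C1qa 0.16 ± 0.25, C1qb 0.15 ± 0.23, and Marco -0.28 ± 0.63, and the groups overlapped for all 10 genes, whereas LL-PM2.5 lay wholly higher in 9.65% and wholly lower in 11.6% of all genes. The sign of this median turned on which library was kept. Leaving out replicate 1 or replicate 2 of LL-FA gave -0.14 or 0.31, and leaving out replicate 1 or replicate 2 of LL-PM2.5 gave 0.20 or -0.06.

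Averaged over the light regimes, 0 of the 10 genes passed for PM2.5 against filtered air by edgeR, by unadjusted p or by DESeq2, where 0.0177%, 10% and 1.42% of all genes did. The log2 fold changes lay between -0.44 ± 0.45 for Marco and 0.07 ± 0.14 for Cd68, with a median of -0.04 and 7 of the 10 below 0, against 50.5% of all genes. The median was -0.15 without LL-FA replicate 1, 0.01 without LD-FA replicate 1, -0.09 without both and 0.11 without LL-FA replicate 2, so its sign was not fixed. For none of the 10 did all PM2.5 libraries lie on 1 side of all filtered air libraries, as they did in 1.59% (higher) and 1.81% (lower) of all genes. Apart from Marco, the 95% intervals from the fit reached from -0.47, the lower bound for Timd4, to 0.39, the upper bound for Cd68. That is 0.722 to 1.31 times the filtered air level. For Marco the interval was -1.48 to 0.60. The difference between the PM2.5 effects in constant light and in a light/dark cycle was tested as an interaction. Its log2 values had a median of 0.25 and 1 of the 10 was below 0, against 49.6% of all genes, and the smallest adjusted p of edgeR was 0.843. No gene of the 10 had an unadjusted p under 0.05, against 4.88% of all genes, DESeq2 called none of the 10 and 0.292% of all genes, and the median was -0.02 without LL-FA replicate 1.

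**Figure D4:**
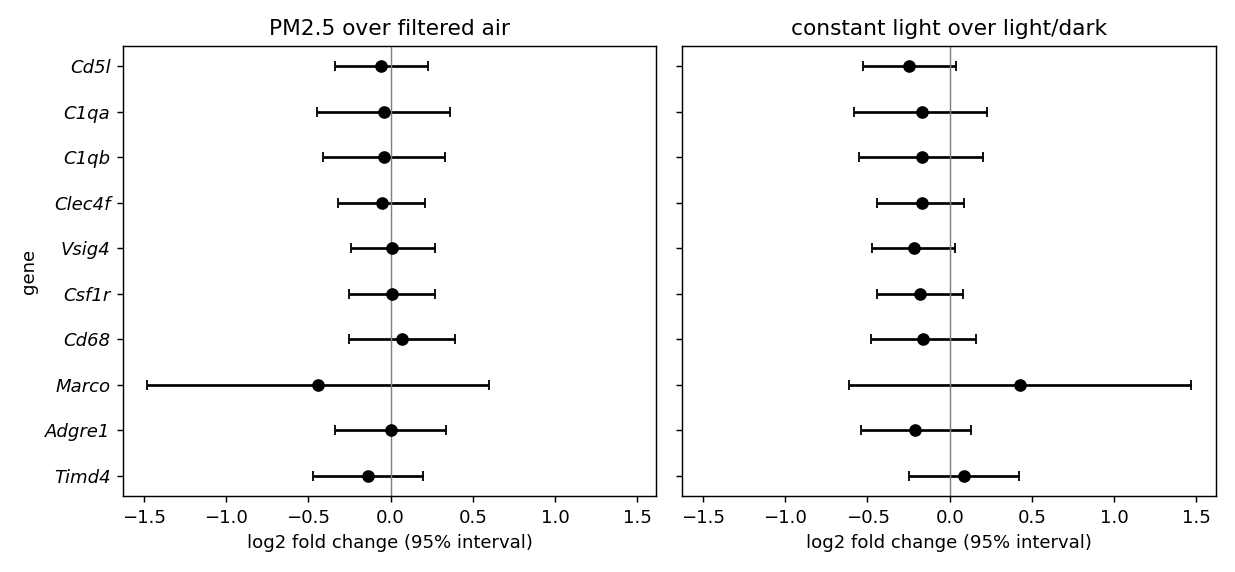
Log2 fold changes with 95% intervals from the edgeR fit (horizontal axis) for the 10 genes, for PM2.5 over filtered air averaged over the light regimes (left) and for constant light over the light/dark cycle averaged over air (right). All 20 intervals include 0, and those of Marco are the widest, -1.48 to 0.60 for PM2.5 and -0.61 to 1.47 for constant light.

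Constant light was set against the light/dark cycle in the same way. The comparisons share libraries with those above: LD-FA serves both the PM2.5 and the constant light comparison, so a high or low LD-FA library enters both. In filtered air, LL-FA against LD-FA, none of the 10 passed edgeR's test, nor did any of all tested genes (0%), and DESeq2 called none of the 10 and 0.38% of all genes. The median log2 fold change was -0.29, against 0.00 over all genes, with 9 of 10 below 0, against 49.9% of all genes. In 4 genes, Cd5l, Vsig4, Adgre1 and Cd68, both LL-FA libraries lay below both LD-FA libraries, as in 11.3% of all genes, and no gene of the 10 lay wholly higher, as 10.7% did. Cd5l averaged 46.9 ± 5.22 FPKM in LL-FA and 64.3 ± 8.14 in LD-FA (SD, n = 2 each), a log2 fold change of -0.41 ± 0.17, and was the only 1 of the 10 with an unadjusted p under 0.05, as 2.74% of all genes had. That edgeR p was 0.046 and its adjusted value was 1.

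Vsig4 averaged 19.7 ± 0.282 FPKM in LL-FA and 23.7 ± 3.31 in LD-FA, with a log2 fold change of -0.30 ± 0.15. Cd68 averaged 7.1 ± 0.664 in LL-FA and 8.89 ± 0.282 in LD-FA, with -0.31 ± 0.19, and Adgre1 averaged 5.71 ± 0.703 in LL-FA and 6.92 ± 0.501 in LD-FA, with -0.28 ± 0.20. C1qa and C1qb both had -0.37, with overlapping groups. The median of the 10 genes was -0.08 without LL-FA replicate 1, -0.23 without LD-FA replicate 1 and 0.01 without both of these libraries. LL-FA replicate 1 held the most muscle and fat transcripts, and LD-FA replicate 1 the most pancreas transcripts. Without LL-FA replicate 2 the median was -0.52.

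Under PM2.5, LL-PM2.5 against LD-PM2.5, none of the 10 passed by edgeR or DESeq2 or had an unadjusted p under 0.05, where 0%, 1.23% and 9.23% of all genes did. The median log2 fold change was -0.04, against 0.01 over all genes, with 6 of the 10 below 0, against 48.8% of all genes. It was 0.11, with 3 of the 10 below 0, when replicate 1 of LL-PM2.5 was left out, and -0.21, with 9 below 0, when replicate 2 was. Only Clec4f, at -0.09 ± 0.16, and Csf1r, at -0.18 ± 0.16, lay wholly lower in LL-PM2.5, as did 18.3% of all genes, and none lay wholly higher, as 12.3% did. Averaged over air, 0 of the 10 passed by edgeR, by unadjusted p or by DESeq2, against 0%, 5.66% and 0.813% of all genes. The log2 fold changes were below 0 for 8 of the 10, against 48.7% of all genes, with a median of -0.17. Without LL-FA replicate 1 the median was -0.08, and without this library and LD-FA replicate 1 it was -0.06, with 6 of the 10 below 0, while without LL-FA replicate 2 it was -0.30. For none of the 10 did all constant light libraries lie on 1 side of all light/dark libraries, which 1.56% (lower) and 0.68% (higher) of all genes did. The fold changes ran from -0.25 ± 0.12 for Cd5l and -0.22 ± 0.11 for Vsig4 to 0.09 ± 0.14 for Timd4 and 0.43 ± 0.45 for Marco. The 95% intervals, apart from that of Marco, reached from -0.58 for C1qa to 0.42 for Timd4, or 0.669 to 1.34 times the light/dark level.

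The other genes of the macrophage pathway were taken from fixed lists. In the list of 9 genes for the CSF1 receptor's ligands, its adaptor and the transcription factors of macrophages, none passed edgeR's test in either averaged comparison. DESeq2 called Csf1 for constant light. Csf1, the main growth factor of Kupffer cells, stood at 4.21 and 6.95 FPKM in LD-PM2.5, 2.76 and 3.07 in LD-FA, 1.76 and 1.97 in LL-PM2.5, and 2.16 and 1.79 in LL-FA. All 4 constant light libraries lay below all 4 light/dark libraries, as in 1.56% of all genes, and the 2 LD-PM2.5 libraries were the highest of the 8. For constant light averaged over air the log2 fold change of Csf1 was -1.01 ± 0.18, with an edgeR adjusted p of 0.252 and a DESeq2 adjusted p of 0.000138. The pairs of groups were unlike. In LL-PM2.5 against LD-PM2.5 Csf1 had -1.62 ± 0.25 (edgeR adjusted p = 0.366, DESeq2 adjusted p = 6.74e-06). In LL-FA against LD-FA it had -0.39 ± 0.25 (edgeR unadjusted p = 0.156), and DESeq2 did not call it. When each library was left out in turn, and both LD-FA replicate 1 and LL-FA replicate 1 together, the averaged value stayed between -1.16 and -0.81.

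For PM2.5, Csf1 had a log2 fold change of 1.08 ± 0.25 in the light/dark cycle (edgeR adjusted p = 0.416, DESeq2 adjusted p = 0.0121) and -0.14 ± 0.25 in constant light, where its groups overlapped. The interaction was -1.23 ± 0.35, with an edgeR adjusted p of 0.843 and a DESeq2 adjusted p of 0.236, so the difference between the light regimes did not pass. Il34, the other ligand, stood at 1.1 and 1.4 FPKM in LD-PM2.5, 0.719 and 0.719 in LD-FA, 0.955 and 1.02 in LL-PM2.5, and 0.833 and 0.948 in LL-FA. PM2.5 libraries lay above all filtered air libraries, as in 1.59% of all genes, with an averaged log2 fold change of 0.48 ± 0.18 (edgeR adjusted p = 0.453). Il34 reached 1 FPKM only in PM2.5 libraries, so the filter kept it through the side where it was higher. No conclusion is drawn from this separation, which also rests on 36 to 61 fragments per library. Csf1r itself, averaged in the same way, had 0.01 ± 0.11 for PM2.5 and -0.18 ± 0.11 for constant light. Maf, a transcription factor of mature macrophages, had -0.36 ± 0.10 for constant light, and Zeb2, which maintains macrophage identity, had 0.25 ± 0.14 for PM2.5, neither past the test.

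**Figure D5:**
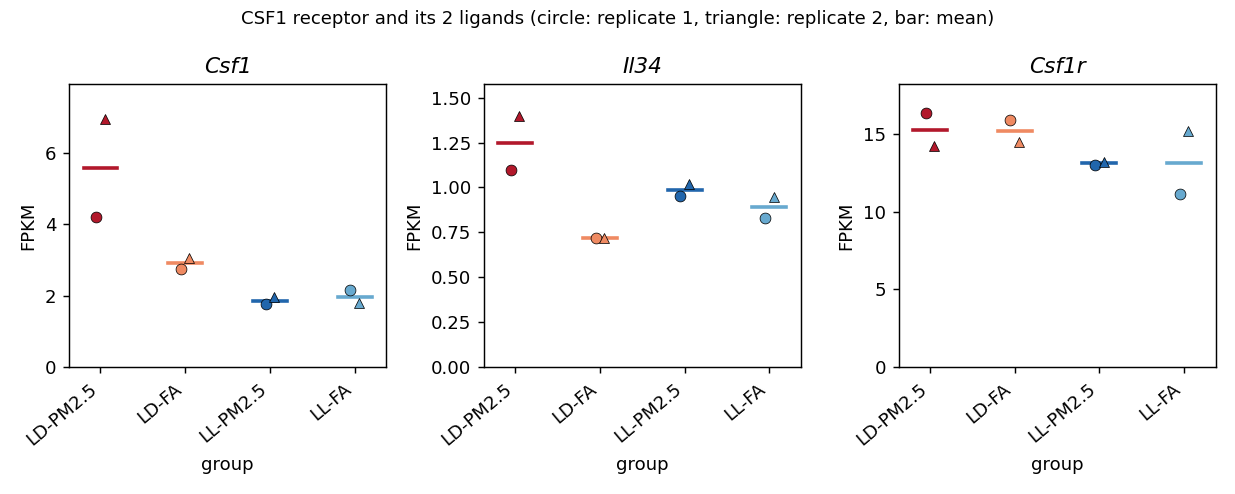
FPKM of Csf1, Il34 and Csf1r (vertical axes, each from 0) in the 4 groups; circles are replicate 1, triangles replicate 2 and bars the mean of the 2 libraries. Csf1 is highest in LD-PM2.5, at 4.21 and 6.95 FPKM, and at most 2.16 FPKM in constant light, whereas Csf1r lies between 11.1 and 16.3 FPKM in all groups.

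Of 12 further Kupffer cell genes, 11 were tested and none passed edgeR's test in either averaged comparison. For constant light 8 of the 11 were below 0, against 48.7% of all genes, with a median of -0.18. Folr2, a folate receptor of resident macrophages, stood at 13.5 and 12.8 FPKM in LD-PM2.5, 15.3 and 14.8 in LD-FA, 10.4 and 7.44 in LL-PM2.5, and 9.81 and 11.7 in LL-FA. All constant light libraries were below all light/dark libraries, as in 1.56% of all genes, with a log2 fold change of -0.50 ± 0.13 (edgeR adjusted p = 0.602). C6, a late complement component, had -0.25 ± 0.10, and Cd163, the receptor for haemoglobin bound to haptoglobin, had -0.31 ± 0.14, with overlapping groups. For PM2.5 the median of the 11 was -0.05. Cd163, at 4.68 and 5.91 FPKM in LD-PM2.5, 3.44 and 2.99 in LD-FA, 4 and 2.69 in LL-PM2.5, and 3.41 and 3.25 in LL-FA, had 0.35 ± 0.14. Slc40a1, the iron exporter ferroportin, had 0.37 ± 0.15, and Folr2 had -0.23 ± 0.13.

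Among 15 other phagocyte genes none passed edgeR's test in either averaged comparison. For constant light averaged over air 14 of the 15 were below 0, against 48.7% of all genes, with a median of -0.16. The pairs of groups were unlike. In LL-FA against LD-FA 14 of the 15 were below 0 (median -0.28), against 49.9% of all genes. In LL-PM2.5 against LD-PM2.5 7 of the 15 were (median 0.02), against 48.8%. The 15 genes summed to 140 and 188 FPKM in LL-FA and to 215 and 188 in LD-FA, so only the replicate 1 libraries differed in this sum. No sign counts of this list are given without them. Cd14, the co-receptor for lipopolysaccharide, had an averaged -0.63 ± 0.22 (edgeR adjusted p = 0.842). It lay lower in all constant light libraries, as 1.56% of all genes did, and leaving out replicate 1 of both LL-FA and LD-FA gave -0.37. Fcgr1, the high-affinity IgG receptor, had -0.38 ± 0.20, and Msr1, a scavenger receptor, had -0.21 ± 0.12. For PM2.5 averaged over light 2 of the 15 were below 0, against 50.5% of all genes, with a median of 0.09. In LL-PM2.5 against LL-FA 1 of the 15 was below 0 (median 0.19), against 49.3% of all genes. In LD-PM2.5 against LD-FA 9 of the 15 were (median -0.04), against 51.6%. The low LL-FA replicate 1 enters the constant light count, and the high LD-FA replicate 1 the light/dark count. The smallest averaged p-values were those of the IgG receptor gene Fcgr3 at 0.50 ± 0.14 (edgeR adjusted p = 0.407), Ptprc, which encodes the leukocyte antigen CD45, at 0.44 ± 0.17, and Sirpa, an inhibitory receptor, at 0.25 ± 0.17. Without LL-PM2.5 replicate 2, Ptprc had 0.23 and Sirpa 0.03.

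Of 12 marker genes of monocytes and of macrophages recruited from them 5 were tested, and Cx3cr1, Itgam, Chil3 and Gpnmb stayed under 0.5 FPKM in all 8 libraries. The chemokine receptor gene Ccr2, which guides monocytes into tissue, lay between 0.11 and 0.666 FPKM. Plac8, a gene of monocytes and other leukocytes, averaged 7.17 FPKM over the 8 libraries, above the means of Marco, Adgre1 and Timd4. The list summed to 59.8 and 36.3 FPKM in LD-PM2.5, 82.1 and 46.7 in LD-FA, 48.5 and 53.1 in LL-PM2.5, and 55.4 and 48.5 in LL-FA, most of it from Spp1 and Cd9, which other liver cells also express. For PM2.5 Spp1 had a log2 fold change of -0.40 ± 0.20, Clec12a 0.12 ± 0.16 and Cd9 -0.10 ± 0.19. For constant light Plac8 had -0.20 ± 0.23, Spp1 -0.17 ± 0.20 and S100a4 0.19 ± 0.36, and none passed edgeR's test. The sums of other immune cells were small: 4.14 to 14.5 FPKM for 7 neutrophil genes, of which Ly6g, Csf3r, Cxcr2 and Ngp stayed under 0.5 FPKM; 1.29 to 2.23 FPKM for 7 dendritic cell genes; 2.48 to 5.27 FPKM for 8 genes of T and NK cells; and 8.1 to 28.2 FPKM for 6 genes of B and plasma cells. The sums of the B and plasma cell genes were 14.5 and 10.2 FPKM in LD-PM2.5, 28.2 and 20.7 in LD-FA, 11.3 and 12.6 in LL-PM2.5, and 8.1 and 10.7 in LL-FA, so both LD-FA libraries stood above all others.

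Some transcripts of other cell types are set beside the macrophage genes, and not all of them had the same signs. Ighm, the heavy chain of IgM, stood at 11.6 and 8.58 FPKM in LD-PM2.5, 21.6 and 17.3 in LD-FA, 8.11 and 8.52 in LL-PM2.5, and 5.72 and 8.03 in LL-FA. In LL-FA against LD-FA its log2 fold change was -1.48 ± 0.21 (edgeR adjusted p = 0.515, DESeq2 adjusted p = 3.86e-07), and for constant light averaged over air -0.87 ± 0.14 (edgeR adjusted p = 0.231, DESeq2 adjusted p = 7.05e-05). In LD-PM2.5 against LD-FA, where 9 of the 10 macrophage genes were also below 0, it was -0.93 ± 0.20 (edgeR adjusted p = 0.416, DESeq2 adjusted p = 0.0104). Jchain, which joins IgM and IgA units, had -0.62 ± 0.29 for constant light averaged over air. S100a8 and S100a9, which encode the calprotectin of neutrophils, had -0.82 ± 0.32 and -0.83 ± 0.31 in that comparison, and in LD-PM2.5 against LD-FA 1.14 ± 0.44 and 1.02 ± 0.43, the same signs as Csf1 (edgeR adjusted p at least 0.438 for both). In LL-PM2.5 against LL-FA both were below 0, the lower at -0.76 and the other at -0.14. They rest on few fragments per library, 17 to 75 for S100a8 and 28 to 107 for S100a9. Of the stellate cell genes, Lrat, which esterifies retinol, had 0.77 ± 0.21 for constant light averaged over air (edgeR adjusted p = 0.613, DESeq2 adjusted p = 0.0243). The 10 genes of that list had a median of 0.05, with 4 below 0, among them Reln at -0.18 ± 0.10 and Hgf at -0.30 ± 0.24. The part of these cell types in the values of the macrophage genes was not tested.

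Each library was given a summary of the 10 genes, the mean of their log2(FPKM + 1) values scaled to mean 0 and SD 1. It was 0.68 and -0.50 in LD-PM2.5, 1.06 and 0.27 in LD-FA, -0.51 and 0.11 in LL-PM2.5, and -1.43 and 0.32 in LL-FA. Among 6435 tested genes with a mean of at least 5 FPKM, the 8 outside the list that followed this summary most closely over the 8 libraries were Hexa (Pearson's r 0.97), which encodes a subunit of a lysosomal hexosaminidase, Polr1c, Sdc3 and Kdelr1 (0.95 each), Dpm2 (0.93), Pcbp1 and Yipf3 (0.92 each) and Cnpy3 (0.91). Kdelr1 returns proteins to the endoplasmic reticulum and Cnpy3 is a chaperone of Toll-like receptors. With any 1 library left out, r stayed between 0.95 and 0.98 for Hexa and between 0.83 and 0.95 for Yipf3. None of the 8 was in any of the lists used here, and with 8 libraries, of which 2 lie at the ends, such values describe these libraries only.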

How the data were processed

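The authors deposited 1 table of gene entries by library. Per the submitters' processing notes, Cuffdiff, Cufflinks and STAR were used with build mm10; not given in the sources used here are versions and options. Per the file headers it holds fragments per gene and library, an expected or estimated count, and the authors' FPKM. Nonzero fragment values were whole numbers to a tolerance of 0.01 in 97.4% of cases, and all were rounded before testing. Of 48432 entries, 47 with a status other than OK in at least 1 library were left out. Symbols came from GENCODE vM21 by gene ID, 48051 IDs matched, and entries of the same symbol were added.

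The 10 genes and all lists were chosen with earlier results of these data known. Tested were genes that reached 1 FPKM in 2 or more libraries. A single edgeR 4.0.16 quasi-likelihood model (R 4.3.3, TMM scaling, 4 group means, 4 residual and 3.46 prior degrees of freedom) gave all comparisons, with two-sided tests and p-values adjusted by Benjamini-Hochberg over all 11316 genes at 0.05. The SE equals the size of the log2 fold change over the square root of F. Named are the 10 genes, the 3 genes of smallest p of each other macrophage list per averaged comparison, and the 8 genes most like the 10. For lists of other cell types, which the rule also covers, sums are given, and as genes those of B cells and neutrophils and Lrat, picked after their values were seen. A gene that the rule names is not reported here. Ccr2, C1qc, the pairwise values of Csf1 and the levels of listed genes were added after their values were seen. Alternatives were median-of-ratios scaling, no filter, a filter at 5 FPKM, DESeq2 1.42.0, limma 3.58.1 on log2(FPKM + 1) and log2(FPKM + 0.1), a robust prior, a replicate block, only the groups compared, and libraries left out.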

Additional observations from a re-analysis of the deposited data

How the results depend on the processing

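No alternative among the 18 tried called any of the 10 genes, and the smallest adjusted p was 0.309, for Marco and PM2.5 averaged over light with no filter. With 2 libraries per group and 4 residual degrees of freedom this says little about stability. Depth of 22214720 to 31819109 fragments gave Timd4, the lowest gene, at least 165 fragments per library.

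Calls over all genes depended on the tool: 0 to 2 per comparison in edgeR, 33 to 161 in DESeq2, 201 to 696 in edgeR with no filter, up to 35 without LD-PM2.5 replicate 1 and up to 12 without LL-PM2.5 replicate 1. The cause was not tested. With no filter Csf1 passed in edgeR for constant light averaged over air, at -1.02 (adjusted p = 8.55e-07).

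The labels' replicate numbers share no stated batch. In each group the deviation of replicate 1 from the group mean was taken for every tested gene, on a log2 scale. Across genes, these deviations correlated at 0.334, -0.262, 0.012, -0.585, 0.221 and 0.063 in the 6 pairs of groups. The replicate numbers were therefore not treated as pairing. With the replicate block 0 of the 10 genes passed in any comparison, and the median for constant light in filtered air was -0.30.

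Leaving out libraries moved medians and signs. For PM2.5 in constant light the median ran from -0.14 to 0.31, for constant light in filtered air from -0.52 to 0.01, for the interaction from -0.03 to 0.46, for PM2.5 averaged over light from -0.15 to 0.11, for constant light under PM2.5 from -0.21 to 0.11, for constant light averaged over air from -0.30 to -0.06 and for LD-PM2.5 against LD-FA from -0.24 to -0.09. With PM2.5 averaged over light, values ran from -0.16 to 0.06 for Clec4f, -0.26 to 0.01 for Timd4, -0.07 to 0.11 for Vsig4, -0.96 to 0.20 for Marco, -0.16 to 0.03 for Cd5l, -0.07 to 0.19 for Cd68, -0.08 to 0.10 for Csf1r, -0.12 to 0.13 for Adgre1, -0.20 to 0.10 for C1qa, -0.18 to 0.12 for C1qb and -0.31 to 0.05 for Cd9. With constant light averaged over air they ran from -0.06 to 0.24 for Timd4, -0.21 to 0.77 for Marco, -0.32 to 0.04 for C1qa, -0.34 to 0.03 for C1qb, -0.36 to 0.11 for Plac8, -0.35 to 0.08 for Spp1 and -0.17 to 0.44 for S100a4. With constant light in filtered air they ran from -0.30 to 0.30 for Timd4, -1.0 to 0.95 for Marco, -0.38 to 0.07 for Csf1r, -0.65 to 0.06 for C1qa and -0.69 to 0.03 for C1qb. The cause was not tested.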
